A study of Danio rerio with 6 samples.

Results

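The MCM helicase genes mcm2, mcm3, mcm4, mcm5, mcm6, mcm7 and mcm10 are 7 of the 23510 genes counted in this RNAseq experiment on zebrafish Müller glia (MG), the radial glia of the retina. They were chosen by name, and their Ensembl identifiers came from a list of MCM genes that the study drew up from these same libraries. The study titles this list as genes induced by injury and regulated by the Myc genes mycb and mych. Neither the rise of the 7 genes with injury nor their difference in the mutant is therefore independent of the choice. All 7 passed the filter on low counts, which kept 20329 genes.

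Rings of 6 subunits, Mcm2 to Mcm7, are the core of the replicative helicase, the motor that unwinds DNA ahead of the replication fork. In eukaryotes the rings are loaded onto origins in an inactive form by the origin recognition complex together with Cdc6 and Cdt1, a step called licensing, and are switched on in S phase when Cdc45, the GINS complex and Mcm10 join them. Cells that leave the cell cycle lose MCM proteins, and cells that divide hold them, so that MCM genes are widely used as markers of proliferation. In the zebrafish retina, MG respond to injury by reprogramming and dividing to give progenitors that replace lost neurons.

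The 6 libraries were made from GFP+ cells sorted from pooled retinas of adult male and female gfap:GFP fish, in which the promoter of the glial gene gfap drives GFP in MG, in activated MG and in progenitors derived from them. Uninjured Wt, Wt at 2 days post injury (dpi) and mycb-/- at 2 dpi had 2 libraries each, and all injured retinas had received needle pokes. The mycb-/- fish carry a germline frameshift deletion in the gene for the Myc family transcription factor Mycb. No uninjured mutant was sequenced here, so that an effect of the genotype before injury and an altered response to injury cannot be told apart. For both Wt 2 dpi libraries the treatment label reads "none", whereas title and source name say 2 dpi, and the latter were used. The study states that its measurements came from distinct samples, but how fish were divided among these libraries is not given in the sources used here. The p-values measure the spread between the libraries, which may in part be technical.

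Library totals ranged from 47088844 to 64353562 counts. The spread between replicates exceeded counting error and sets the precision. As a mean over genes with at least 10 counts in a group, chi-square per gene was from 47.5 to 118 in the groups. This mean allowed for library totals but not for library composition. It can be dominated by genes with high counts, so it does not describe a typical gene. The mutated gene itself has no entry in the name tables used here and was not examined. Of the markers of MG, 3 of 6 could be matched (gfap, apoeb and rlbp1a), and all were present in all 6 libraries. Photoreceptor transcripts were present as well: 5 matched rod markers of 10 summed to between 206 and 3437 counts per 1e6 counts (CPM), and 7 matched cone markers of 11 to between 23079 and 63239 CPM. Levels below are CPM scaled by TMM, edgeR's correction for library composition. They depend on transcript length and are compared between libraries, never between genes. A gene was called where the edgeR quasi-likelihood test gave a Benjamini-Hochberg adjusted p of at most 0.05 and an absolute log2 fold change above 0.5.

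All 7 MCM genes rose at 2 dpi in Wt and reached an intermediate level at 2 dpi in mycb-/- MG. In uninjured Wt mcm10 had 0 counts, mcm2 to mcm6 had mean levels between 1.39 and 1.91 CPM, and mcm7 had a mean of 8.49 CPM. All 7 were called higher in Wt 2 dpi than in uninjured Wt, where 19.2% of all genes tested were called higher. All 7 were called lower in mycb-/- 2 dpi than in Wt 2 dpi, where 12.2% of all genes tested were called lower. The MG markers gfap, apoeb and rlbp1a were called lower in the same comparison, with log2 fold changes from -1.95 to -1.67, and the matched rod and cone markers had higher levels. When libraries were scaled to these 3 MG markers, a setting added after seeing the data, 0 of the 7 MCM genes were called, and the values are given with the markers. All 7 were also called higher in mycb-/- 2 dpi than in uninjured Wt, where the share of all genes tested that were called higher was likewise 12.2%. The order uninjured Wt, mycb-/- 2 dpi, Wt 2 dpi held for each of the 7 genes with no overlap between neighbouring groups, as it did for 13.3% of all genes tested. The 3 comparisons share libraries and are not independent of each other. In sorted bulk RNA, fewer cells that express a gene and less RNA per cell cannot be told apart.

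**Figure D1:**
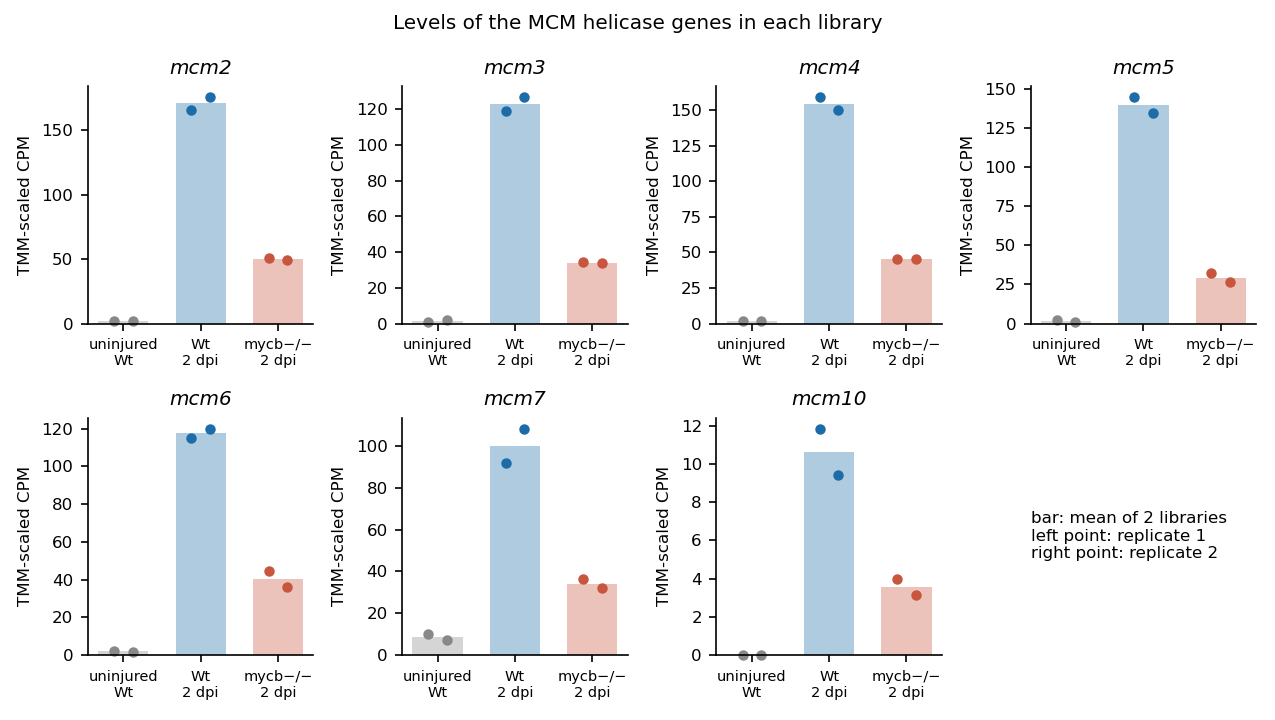
Level of each MCM helicase gene (TMM-scaled CPM, linear axis from 0, a separate scale per gene) in uninjured Wt, Wt 2 dpi and mycb-/- 2 dpi MG. Points are libraries and bars are means of 2 libraries. For every gene both mutant points lie above both uninjured points and below both Wt 2 dpi points, an order that 13.3% of all genes tested also show, and mcm10 had 0 counts in both uninjured libraries.

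Among the subunits of the ring, mcm2 (ENSDARG00000102798) and mcm5 (ENSDARG00000019507) encode the pair whose contact forms the gate through which DNA enters the ring in yeast. The level of mcm2 was 1.62 and 2.02 CPM in uninjured Wt, 166 and 176 CPM in Wt 2 dpi, and 51.0 and 49.1 CPM in mycb-/- 2 dpi. The replicates of each injured group thus lay close together and far from the other groups. mcm2 was 93.9-fold higher with injury in Wt (log2 fold change 6.55, SE 0.22, adjusted p = 6.6e-07). In mycb-/- MG it was lower than in Wt 2 dpi by a log2 fold change of -1.77 (SE 0.17, adjusted p = 0.00092), and the mutant mean of 50.1 ± 1.33 CPM (SD, n = 2) was 29.3% of the Wt 2 dpi mean.

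The level of mcm5 was 2.12 and 0.902 CPM in uninjured Wt, 145 and 135 CPM in Wt 2 dpi, and 32.4 and 26.3 CPM in mycb-/- 2 dpi. Its rise with injury was 91.7-fold (log2 fold change 6.52, SE 0.37, adjusted p = 3.22e-06), but this value depended on the uninjured libraries: the log2 fold change was 7.27 without uninjured Wt replicate 1 and 6.06 without uninjured Wt replicate 2. Of the 7 genes, mcm5 had the lowest log2 fold change in the mutant, at -2.25 (SE 0.30, adjusted p = 0.00143), and kept 21.0% of the Wt 2 dpi level. The uninjured libraries differed from each other for this gene, with 126 and 49 counts, while both were far below the 1527 and 1165 counts of the mutant libraries.

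mcm3 (ENSDARG00000024204) encodes the subunit whose end contacts the origin recognition complex and Cdc6 during loading in yeast. Its level was 0.960 and 1.82 CPM in uninjured Wt, 119 and 127 CPM in Wt 2 dpi, and 34.3 and 33.7 CPM in mycb-/- 2 dpi. The mutant libraries lay within 1 CPM of each other. mcm3 was 88.8-fold higher with injury (log2 fold change 6.47, SE 0.30, adjusted p = 1.43e-06). This value depended on the uninjured libraries: the log2 fold change was 6.08 without uninjured Wt replicate 1 and 7.02 without uninjured Wt replicate 2. In the mutant mcm3 changed by -1.86 on the log2 scale (SE 0.24, adjusted p = 0.00133), to 27.6% of the Wt 2 dpi level. Its related gene mcm3l (ENSDARG00000037532) held 3 counts in 1 mutant library and 0 in the other libraries.

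mcm4, mcm6 and mcm7 encode the subunits that, purified together from mammalian cells, carry helicase activity. The level of mcm4 (ENSDARG00000040041) was 1.53 and 1.45 CPM in uninjured Wt, 159 and 149.98 CPM in Wt 2 dpi, and 45.3 and 45.5 CPM in mycb-/- 2 dpi. It was 103-fold higher with injury in Wt (log2 fold change 6.69, SE 0.21, adjusted p = 6.25e-07). Both mutant libraries were lower than either Wt 2 dpi library (log2 fold change -1.77, SE 0.16, adjusted p = 0.000906) and kept 29.4% of their mean level.

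The level of mcm6 (ENSDARG00000057683) was 1.97 and 1.84 CPM in uninjured Wt, 115 and 119.9 CPM in Wt 2 dpi, and 44.7 and 35.9 CPM in mycb-/- 2 dpi. It was 61.6-fold higher with injury (log2 fold change 5.94, SE 0.22, adjusted p = 7.91e-07). The difference between mutant and Wt at 2 dpi was -1.54 (SE 0.18, adjusted p = 0.00106), which left 34.3% of the Wt level. Another gene that carries the name MCM6 (ENSDARG00000033231) held 37 and 29 counts in uninjured Wt, 9 and 0 in Wt 2 dpi, and 15 and 0 in the mutant. Sequences were not compared here, and reads may have been shared between these genes. With their counts added together, the rise of mcm6 with injury was 5.56 on the log2 scale, and it was still called.

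mcm7 (ENSDARG00000101180) had 590 and 383 counts in uninjured MG. Its level was 9.94 and 7.05 CPM in uninjured Wt, 91.8 and 108 CPM in Wt 2 dpi, and 36.4 and 31.9 CPM in mycb-/- 2 dpi. The rise with injury was 11.8-fold (log2 fold change 3.56, SE 0.23, adjusted p = 7.14e-06), below the range of 61.6-fold to 103-fold of the other ring subunits. In the mutant it fell by 1.55 on the log2 scale (SE 0.21, adjusted p = 0.0016), to 34.1% of the Wt 2 dpi level, a share close to that of mcm6.

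mcm10 (ENSDARG00000045815) encodes no subunit of the ring but a factor that binds it and is needed to start unwinding. It had 0 counts in both uninjured libraries, 781 and 541 counts in Wt 2 dpi, and 189 and 138 counts in mycb-/- 2 dpi. The level at 2 dpi was 10.6 ± 1.71 CPM in Wt and 3.56 ± 0.627 CPM in the mutant (SD, n = 2 each), and the injured groups did not overlap. Against the limit of 3 counts per library that a count of 0 allows, its level was at least 201-fold higher in Wt 2 dpi and at least 67.3-fold higher in mycb-/- 2 dpi than in uninjured Wt. These limits cover counting error only.

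The difference of mcm10 between mutant and Wt at 2 dpi was -1.58 (SE 0.37, adjusted p = 0.0176), and 33.5% of the Wt level was kept. This call rested on single libraries. Without Wt 2 dpi replicate 1 the log2 fold change was -1.40 (adjusted p = 0.126), and without mycb-/- replicate 2 it was -1.25 (adjusted p = 0.11). The other 6 genes kept their calls in all 3 comparisons whichever library was left out.

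**Figure D2:**
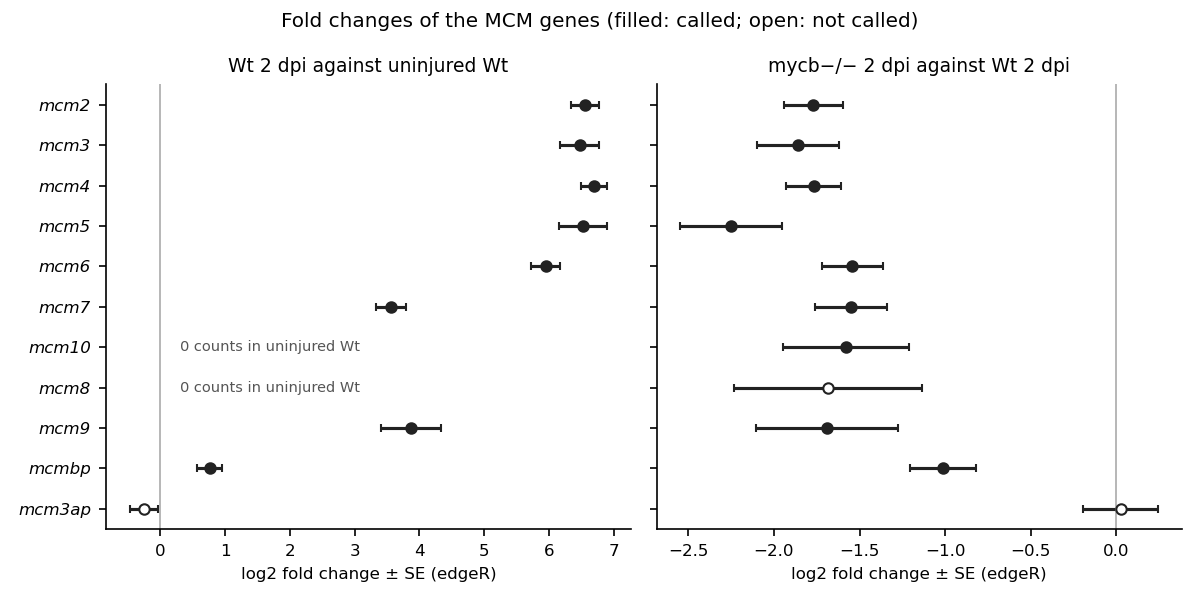
Log2 fold changes (edgeR, points, with SE as horizontal bars) of the 7 MCM helicase genes and of 4 other genes with MCM in their name, for Wt 2 dpi against uninjured Wt (left) and mycb-/- 2 dpi against Wt 2 dpi (right), from 2 libraries per group. Filled points were called and open points were not. mcm7 at 3.56 stands below mcm2 to mcm6 on the left, the 7 helicase genes lie between -2.25 and -1.54 on the right, and mcm10 and mcm8 have no point on the left because uninjured Wt had 0 counts.

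On the TMM scale, the mutant mean lay between the uninjured Wt and Wt 2 dpi means for each gene. No uninjured mutant was sequenced, so the part of this level that arose with injury in the mutant is not known. The share of the Wt induction reached was taken as the mutant level above the uninjured Wt mean, divided by the Wt 2 dpi mean above the uninjured Wt mean. It was 28.5% for mcm2, 26.8% for mcm3, 28.7% for mcm4, 20.1% for mcm5, 33.2% for mcm6, 28.0% for mcm7 and 33.5% for mcm10. The replicates of the mutant spread from 18.0% to 22.3% for mcm5 and from 29.4% to 37.1% for mcm6, which do not overlap. Those of mcm2, mcm4 and mcm7 overlapped each other. The shares depend on the scaling: that of mcm2 was 26.0% when libraries were scaled by their total alone. Values set against MG markers are given with the markers. With 2 libraries against 2, an exact permutation test cannot give a two-sided p below 0.333, and these shares are given as a description.

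Against uninjured Wt, the injured mutant remained higher by 4.78 on the log2 scale for mcm2 (SE 0.20, adjusted p = 4.77e-06), 4.61 for mcm3, 4.92 for mcm4, 4.27 for mcm5 and 4.40 for mcm6. For mcm7 the difference was 2.01 (SE 0.22, adjusted p = 0.000222), a 4.02-fold higher level. The median of the 7 log2 fold changes was 6.52 for injury in Wt, -1.77 for mutant against Wt at 2 dpi and 4.61 for injured mutant against uninjured Wt, where the medians of all genes tested were -0.00, -0.13 and 0.02. By their log2 fold change in the mutant the 7 genes were within the lower tail of all genes but not at its end: between 3.79% of all genes (for mcm5) and 8.61% (for mcm6) had a lower value.

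Summed over mcm2 to mcm7, the ring subunits made up 0.00195% and 0.00147% of all counts in uninjured Wt, 0.0816% and 0.0850% in Wt 2 dpi, and 0.0245% and 0.0198% in mycb-/- 2 dpi. The scaled sums were 16.6 ± 2.16 CPM in uninjured Wt, 806 ± 13.5 CPM in Wt 2 dpi and 233 ± 15.3 CPM in mycb-/- 2 dpi (SD, n = 2 each). The mutant thus held 28.9% of the Wt 2 dpi sum. This share was 26.6% when libraries were scaled by their total alone, and lay between 27.6% and 33.8% when any library was left out. It was not computed under scaling to MG markers. Set against the MG marker rlbp1a, the mean log2 ratio of the sum was -0.50 in Wt 2 dpi and -0.62 in the mutant.

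The ring holds each subunit once, and the balance among the 6 transcripts can be followed within a library, where scaling between libraries plays no part. For each gene the log2 ratio of its CPM to the mean log2 CPM of mcm2 to mcm7 was taken and set relative to its mean in Wt 2 dpi. In Wt 2 dpi the replicates departed from their mean by at most 0.10. In uninjured Wt mcm7 stood apart, at 2.61 and 2.23 above its Wt 2 dpi ratio. The ratios of the 6 genes sum to 0 in each library, so that this excess by itself lowers the ratios of the other subunits. With the mean of mcm2 to mcm6 as the reference, a choice made after seeing the data, mcm7 was at 3.14 and 2.67 and mcm6 at 0.57 and 0.50 in uninjured Wt, and mcm4 at -0.19 and -0.24. The uninjured libraries differed from each other for mcm3, at -1.06 and -0.03, and for mcm5, at -0.10 and -1.22, where counts were low.

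In the mutant at 2 dpi, the ratios of mcm2, mcm3 and mcm4 lay between -0.12 for mcm3 and 0.10 for mcm4. The ratio of mcm5 was lower, at -0.39 and -0.54, outside the range of the Wt 2 dpi libraries, which were at 0.07 and -0.07. The ratios of mcm6, at 0.33 and 0.16, and of mcm7, at 0.26 and 0.22, were higher than in both Wt 2 dpi libraries. With mcm2 to mcm6 as the reference, mcm5 was at -0.34 and -0.50, mcm6 at 0.38 and 0.20, and mcm7 at 0.32 and 0.26. For these 3 genes mutant and Wt 2 dpi did not overlap on either reference. How many other genes would show no overlap in such a ratio was not computed. With 2 libraries against 2, no overlap is the outcome with the smallest two-sided exact permutation p, which is 0.333. These ratios do not subtract the uninjured Wt level, which was 8.49 CPM for mcm7. Its share of the Wt induction reached was 28.0%, beside 28.5% for mcm2 and 28.7% for mcm4. The genes share a reference, so a lower ratio of mcm5 by itself raises the ratios of the others. No model was fitted to the ratios, and the departures are a description.

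**Figure D3:**
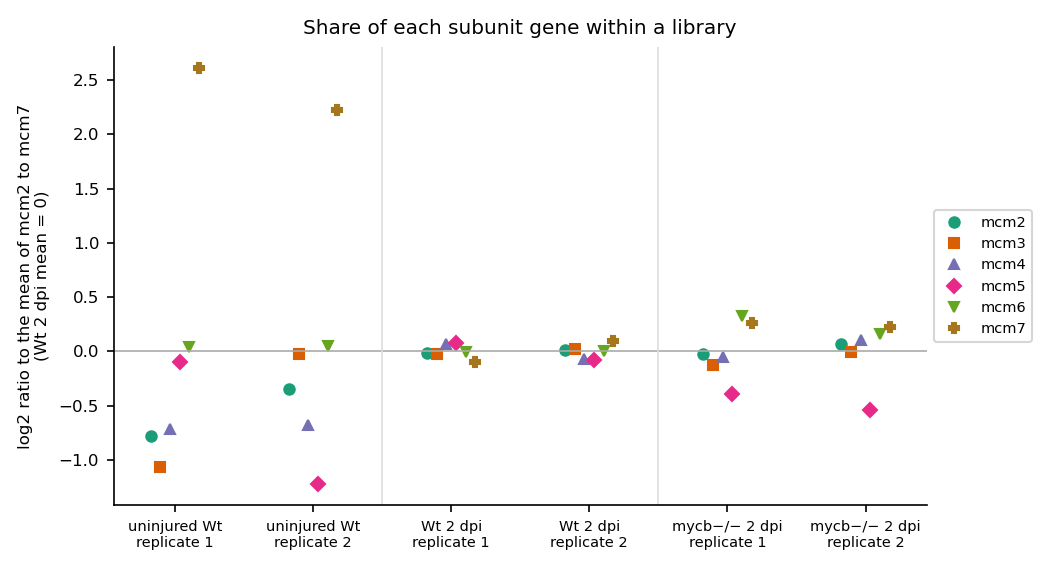
Log2 ratio of each ring subunit gene to the mean of mcm2 to mcm7 in the same library, set to 0 at the Wt 2 dpi mean (vertical axis), for the 6 libraries (horizontal axis). Each symbol is a gene in a library. mcm7 stands at 2.61 and 2.23 in uninjured Wt, and mcm5 lies below the other subunits in both mutant libraries at -0.39 and -0.54.

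Other genes with MCM in their name did not all follow the helicase genes. mcm8 and mcm9 encode a related helicase pair that acts in repair by homologous recombination in mammals. mcm8 had 0 counts in both uninjured libraries, 293 and 411 in Wt 2 dpi, and 105 and 61 in mycb-/- 2 dpi. Its level in Wt 2 dpi was at least 109.7-fold higher than in uninjured Wt, and its log2 fold change of -1.68 in the mutant was not called (SE 0.55, adjusted p = 0.0614). mcm9, with 55 and 23, 623 and 595, and 152 and 129 counts in the same order of groups, was called in both comparisons, with log2 fold changes of 3.87 (SE 0.46) for injury and -1.69 (SE 0.41, adjusted p = 0.0182) for the mutant.

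mcmbp, whose product binds and chaperones MCM subunits in human cells, was well expressed before injury, at 41.3 and 37.3 CPM. It was 75.3 and 58.0 CPM in Wt 2 dpi and 35.4 and 30.7 CPM in the mutant, so that the mutant lay below uninjured Wt in both libraries. Its log2 fold changes were 0.76 for injury (SE 0.19, adjusted p = 0.0113), -1.01 for the mutant (SE 0.19, adjusted p = 0.006) and -0.25 for injured mutant against uninjured Wt, which was not called (adjusted p = 0.389). mcm3ap, named for a product that binds MCM3 in human cells, was not called, with log2 fold changes of -0.25 for injury and 0.03 for the mutant.

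The 22 other genes of origin licensing and helicase activation that were tested comprise the origin recognition complex, the loaders, the kinases and the GINS complex. With injury in Wt 20 of them were called higher, beside 19.2% of all genes tested, and 2 were not called (median log2 fold change 3.98). In the mutant 17 were called lower than in Wt 2 dpi, beside 12.2% of all genes tested, and 5 were not called (median -1.60). The lowest value was that of orc6, a subunit of the origin recognition complex, at -2.37 (SE 0.23, adjusted p = 0.00092). It had 15 and 15 counts in uninjured Wt, 2079 and 1653 in Wt 2 dpi, and 264 and 267 in the mutant, which gives 3 separate levels. cdc45, which forms the active helicase with the ring, changed by -1.97 (SE 0.51, adjusted p = 0.023), and cdc6, the loader, by -1.85 (SE 0.29, adjusted p = 0.00255).

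At the other end of this list ccne2, a cyclin E gene, had 17.9 and 12.3 CPM in Wt 2 dpi and 20.8 and 14.3 CPM in the mutant, which overlap, and its log2 fold change of 0.21 was not called. dbf4, the activating partner of the kinase Cdc7, was not called at -0.91 (adjusted p = 0.346), and topbp1, which brings activators to the ring, was called lower at -0.94 (SE 0.22, adjusted p = 0.0136). Of the 22 genes 9 are on the study's lists, which it titles as induced by injury and regulated by mycb and mych. The counts for injury and for the mutant are thus not independent of these data.

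Behind the helicase, all 23 genes of the replication fork were called higher with injury in Wt (median log2 fold change 3.17), beside 19.2% of all genes tested. In the mutant 18 were called lower than in Wt 2 dpi, beside 12.2% of all genes tested, with 5 not called (median -1.31). pcna, the sliding clamp that holds polymerases on DNA, was 35.1 and 42.9 CPM in uninjured Wt, 537 and 507 CPM in Wt 2 dpi, and 161 and 169.8 CPM in the mutant. In the mutant it changed by -1.66 on the log2 scale (SE 0.17, adjusted p = 0.00092). The log2 fold changes of pole2, a subunit of polymerase epsilon, at -1.76 (adjusted p = 0.0741), and of dscc1, of an alternative clamp loader, at -1.58 (adjusted p = 0.0848), were not called. The values nearest to 0 were those of rfc1, the large subunit of the clamp loader, at -0.45, the ligase gene lig1 at -0.58 and the nuclease gene dna2 at -0.81, and none of these was called. Of the 23 genes 19 are on the study's lists, so that neither count is independent of these data.

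Of 45 genes of mitosis, a later phase of the cell cycle, 44 were called higher with injury, beside 19.2% of all genes tested. In the mutant 31 were called lower, beside 12.2% of all genes tested, with 14 not called (median log2 fold change -1.42). All 45 come from the study's lists, so that neither count is independent of these data. The medians of the licensing, fork and mitosis lists in the mutant were -1.60, -1.31 and -1.42, beside -1.77 for the MCM helicase genes. The lowest fork value was -1.76, that of pole2. mcm2 and mcm4 at -1.77, mcm3 at -1.86 and mcm5 at -2.25 lay below it. The difference between the lists was not tested.

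**Figure D4:**
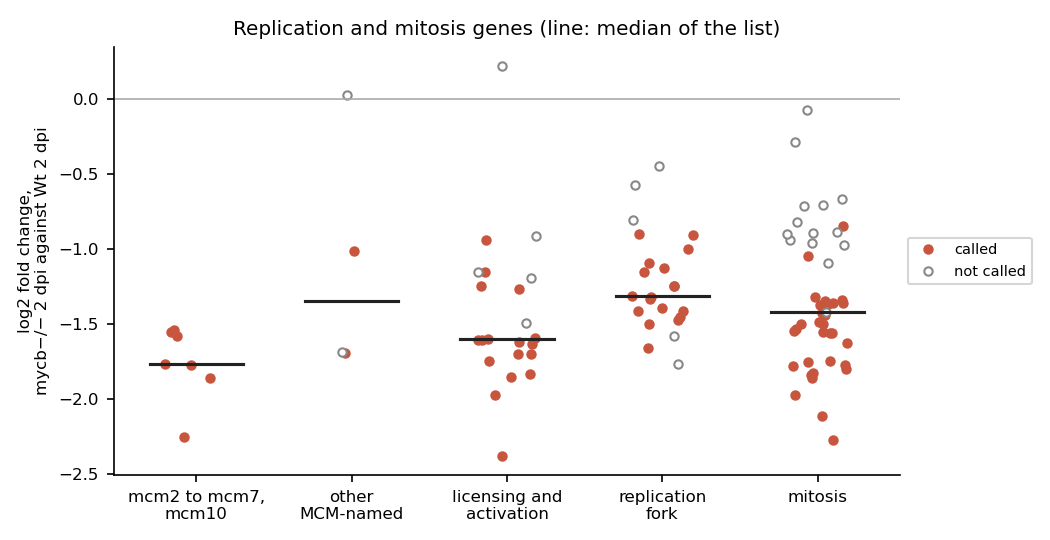
Log2 fold change in mycb-/- 2 dpi against Wt 2 dpi (vertical axis, edgeR) for the 7 MCM helicase genes, 4 other MCM-named genes, 22 licensing and activation genes, 23 replication fork genes and 45 mitosis genes (horizontal axis). Each point is a gene, filled where called, and lines are medians. All 7 helicase genes were called lower, beside 12.2% of all genes tested, with a median of -1.77. The helicase genes lie within the range of the licensing and mitosis genes, and mcm2 to mcm5 lie below every fork gene.

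The fall of the MCM genes in the mutant went with a fall of the MG markers. rlbp1a, the gene of a retinoid-binding protein, was taken as an MG marker, and its cell type in zebrafish was not checked here. rlbp1a had 1364 and 1099.5 CPM in uninjured Wt, 1137 and 1141 CPM in Wt 2 dpi, and 331 and 386 CPM in mycb-/- 2 dpi. It was not called with injury (log2 fold change -0.11), and it changed by -1.67 in the mutant (SE 0.19, adjusted p = 0.000998). gfap, the glial filament gene whose promoter drives the sorted GFP, rose with injury by 2.12 and changed by -1.92 in the mutant (adjusted p = 0.0012), and apoeb, an apolipoprotein gene, rose by 2.09 and changed by -1.95 (adjusted p = 0.00092). All 3 matched MG markers were thus called lower in the mutant, by amounts within the range of the MCM genes.

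The sum of the 3 MG markers was 3340 and 4017 CPM in uninjured Wt, 11134 and 11971 CPM in Wt 2 dpi, and 2633 and 3479 CPM in the mutant. Most of this sum was apoeb in each library. Against uninjured Wt, rlbp1a was called lower in the injured mutant (edgeR log2 fold change -1.78, SE 0.19, adjusted p = 0.000199). In that comparison gfap at 0.20 and apoeb at 0.14 were not called. From Wt 2 dpi to the mutant, photoreceptor markers moved the opposite way to the MG markers. The 5 matched rod markers summed to 2159 and 3437 CPM in uninjured Wt, 206 and 338 CPM in Wt 2 dpi, and 1705 and 1809.6 CPM in the mutant, and 4 of the 5 were called higher in the mutant than in Wt 2 dpi, where 8.21% of all genes tested were called higher. The 7 matched cone markers summed to 61296 and 63239 CPM in the mutant against 23079 and 23254 CPM in Wt 2 dpi, and all 7 were called higher. The 4 matched microglia markers of 5 summed to between 19.6 and 31.3 CPM in Wt 2 dpi and between 44.6 and 59.0 CPM in the mutant, and 1 of them, lcp1, was called higher. No matched marker was at 0 in any library. The part of cell composition in the MCM result was not tested.

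**Figure D5:**
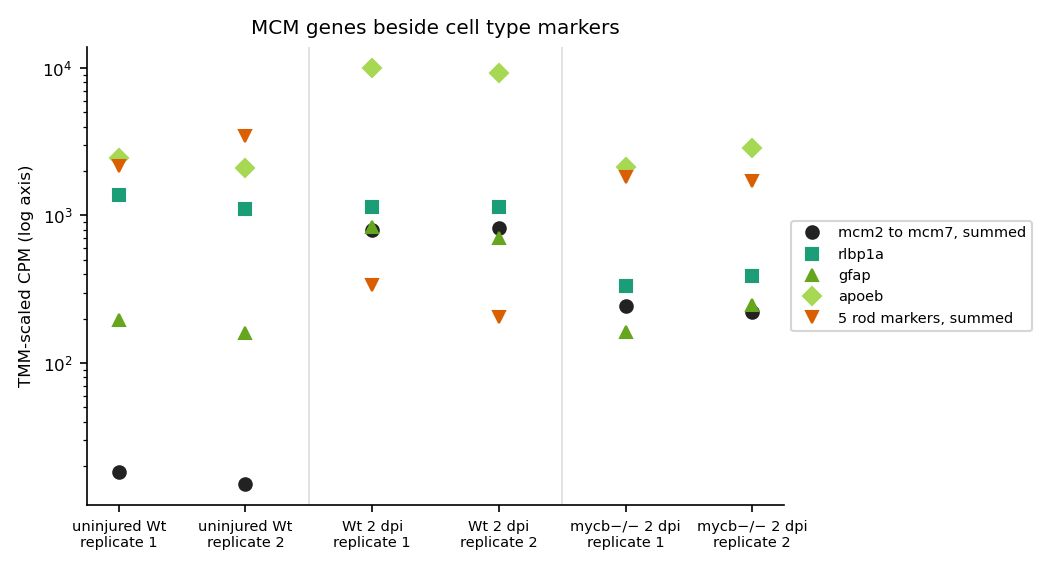
Summed level of mcm2 to mcm7, levels of the MG markers rlbp1a, gfap and apoeb, and the summed level of 5 matched rod markers (TMM-scaled CPM, log axis) in each of the 6 libraries. From Wt 2 dpi to mycb-/- 2 dpi the MCM sum goes from 796 and 815 to 244 and 222 CPM, the 3 MG markers are lower in both mutant libraries, and the rod markers are higher.

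Taken as a ratio within a library, the MCM sum did not separate mutant from Wt at 2 dpi when set against an MG marker. The log2 ratio of the MCM sum to rlbp1a was -6.23 and -6.19 in uninjured Wt, -0.51 and -0.48 in Wt 2 dpi, and -0.44 and -0.80 in mycb-/- 2 dpi. The uninjured libraries were far below all injured ones, whereas the mutant libraries lay on both sides of Wt 2 dpi. The ratio to gfap was -0.07 and 0.21 in Wt 2 dpi and 0.59 and -0.15 in the mutant, and that to apoeb was -3.65 and -3.51 in Wt 2 dpi and -3.13 and -3.68 in the mutant, with overlap in both cases. The ratio to the rod gene gnat1 was 1.79 and 2.58 in Wt 2 dpi and -2.44 and -2.51 in the mutant, which did not overlap.

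When the libraries were scaled to the 3 MG markers in place of TMM, a setting chosen after seeing the data, edgeR called 0 of the 7 MCM genes in the mutant comparison, and 0 had an unadjusted p under 0.05. Their log2 fold changes were then 0.10 for mcm2 (SE 0.29), 0.02 for mcm3 (SE 0.34), 0.11 for mcm4 (SE 0.28), -0.36 for mcm5 (SE 0.33), 0.35 for mcm6 (SE 0.30), 0.33 for mcm7 (SE 0.30) and 0.33 for mcm10 (SE 0.51). The scaling moved the median of all genes to 1.74, and gfap and apoeb themselves respond to injury, so this setting changes the question to MCM transcripts per transcript of these markers. DESeq2 was not run with it.

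The injury difference was seen on either scale: against rlbp1a, which was not called with injury, the MCM sum moved from a mean log2 ratio of -6.21 in uninjured Wt to -0.50 in Wt 2 dpi. Set against pcna, another gene of dividing cells, the log2 ratio of the MCM sum was -0.95 and -1.51 in uninjured Wt, 0.57 and 0.69 in Wt 2 dpi, and 0.60 and 0.39 in the mutant. The injured groups overlapped in this ratio, and both lay above uninjured Wt.

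Among 16120 named genes, the 10 outside the MCM set whose centred log2 CPM over the 6 libraries lay closest to the mean of the 7 MCM genes were haus1, ttk, zgc:110540, adam8a, cenpl, ncapg2, tacc3, primpol, ascl1a and kntc1. Likeness was measured as the root mean square distance in log2 units, which ran from 0.160 for haus1, a spindle microtubule factor, and 0.188 for ttk, a spindle checkpoint kinase, to 0.264 for kntc1, a kinetochore protein. Of the MCM genes themselves mcm6 was closest to the mean, at 0.155, followed by mcm2 at 0.171 and mcm4 at 0.185, and mcm10 at 0.949 and mcm7 at 1.24 were farthest. In all, 438 genes lay within the largest distance of an MCM gene, that of mcm7. The libraries fall into 3 groups, so this likeness mainly reflects the group levels and is a description.

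Among these 10 genes, ascl1a, a proneural transcription factor needed for MG reprogramming in zebrafish, had log2 fold changes of 5.94 for injury and -1.97 for the mutant. adam8a, a membrane metalloprotease gene, had 6.77 and -1.94. The other 8 genes lay between -1.75 for kntc1 and -1.39 for zgc:110540 in the mutant. The choice by profile fixed that these 10 genes rise with injury and are lower in the mutant, so their values are a description.

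The total of calls between mutant and Wt at 2 dpi depended on single libraries. It was 4151 genes with all libraries, 1946 without Wt 2 dpi replicate 1 and 2452 without mycb-/- replicate 1. The share of these calls that were lower also moved with scaling, from 2483 of 4151 under TMM to 3049 of 4246 when libraries were scaled by their total alone, which moved the median log2 fold change of all genes from -0.13 to -0.25. Relative to that median the 7 MCM genes lay between -2.13 and -1.42 under TMM and between -2.12 and -1.41 under the total alone.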

How the data were processed

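Polyadenylated RNA of FACS-purified GFP+ MG was sequenced by the authors, who mapped the reads to GRCz11 and deposited raw counts per gene by Ensembl identifier. The submitters' processing notes name cutadapt 2.3, FastQC 0.11.8, STAR 2.7.8a, RSEM 1.3.3, DESeq2, GRCz11 and GRCh38, with no roles. The counts may thus be rounded RSEM estimates. Strand setting and annotation release are not given in the sources used here.

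Counts were filtered with filterByExpr (minimum count 10), scaled by TMM and tested by the quasi-likelihood method of edgeR 4.0.16 (R 4.3.3), with a term per group in a joint fit of the 6 libraries. SE was derived from the fold change and its F statistic. The study's FPKM threshold was left out because gene lengths were not used here. The pipeline was tested on simulated data, with changes planted only in the mutant group and only in genes expressed in uninjured Wt. Changes with injury in Wt were not simulated. Names came from the study's gene lists and a table of symbols, which named 18564 genes. Markers with ambiguous or unmatched names were left out. Promoter and protein sequences were not used here.

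The MCM genes, the pathway and marker lists and the rule for named genes (all MCM-named genes, the 3 lowest and 3 highest of the licensing and fork lists in the mutant, and the 10 most similar profiles) were chosen with earlier results of these data known. Alternatives were DESeq2 1.42.0, other scalings, filters and thresholds, the compared groups alone, a replicate block and each library left out. Scaling to MG markers, summing gene copies and the balance against mcm2 to mcm6 were added after seeing the data. 0 columns of other samples were present.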

Additional observations from a re-analysis of the deposited data

How the results depend on the processing

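The log2 fold changes of the 7 MCM genes in 3 comparisons gave 273 values under the alternatives other than those added after seeing the data, of which 271 kept direction and call, 2 lost the call (mcm10 in the mutant, without Wt 2 dpi replicate 1 or mycb-/- replicate 2) and 0 reversed. Under TMM, RLE size factors, library size only, TMM without photoreceptor markers, no filter, stricter and looser thresholds, DESeq2 and the compared groups alone, 7 of 7 genes were called in each comparison. With a library left out, the mutant comparison called 6 to 7 of them. Scaling to the 3 MG markers, added after seeing the data, called 0 of 7 in the mutant, with 13705 genes called and only 49 of them lower. It gave 0.10 for mcm2, 0.015 for mcm3, 0.11 for mcm4, -0.36 for mcm5, 0.35 for mcm6, 0.33 for mcm7 and 0.33 for mcm10. The edgeR adjusted p-values were from 0.311 to 0.971. The cause was not tested. Genes called in the mutant comparison were 4151, and 2627 with an absolute log2 fold change above 1, 4952 with DESeq2 and 1946 to 4418 with a library left out. The lower calls among them were 2131 of 4034 with RLE, 1975 of 4021 with the compared groups alone and 2595 of 4952 with DESeq2. The share of the Wt 2 dpi sum kept was 26.6% by library size only and 27.6% to 33.8% with a library left out. It was not computed under scaling to the MG markers. Same-numbered libraries did not deviate together (correlations -0.04 to 0.02), so the numbers were not taken as pairs. With the replicate block 7426, 4268 and 5271 genes were called for injury, mutant and injured mutant against uninjured Wt, with 7 MCM genes in each. The balance per coding length was not run, since coding lengths were not used here. Leaving an injured library out assumes that the remaining one varies like the other groups. In uninjured Wt, low counts limit the values of mcm3, mcm5 and mcm10.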
